A study of Homo sapiens with 16 samples.

Results

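GLB1L3, POU3F1, YIPF1 and RELN are 4 genes of the 23354 in a table of RNA-seq counts from 2 multiple myeloma lines. They were picked by symbol because their counts changed strongly when TAK-981 was added, so their changes with TAK-981, from vehicle to TAK-981 and from Dexamethasone to the combination, are described below without a test. MM1S is the glucocorticoid-sensitive line and MM1R its glucocorticoid-resistant counterpart. The labels call both a B lymphoblast multiple myeloma line. Each line was treated for 48 h with vehicle, with 0.1 µM TAK-981, with 1 µM Dexamethasone (Dex) or with both agents at those doses (combination). Total RNA from 2 libraries of each of the 8 groups was sequenced, giving 16 libraries of 15707587 to 24796539 counts. The study names MM1S as the parental line of MM1R, so the 2 lines are not independent genetic backgrounds. Nothing in the labels says that the 2 libraries of a group came from separate cultures. The p-values therefore measure only the spread between these libraries, which may be technical.

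TAK-981 inhibits the SUMO-activating enzyme (SUMO E1), which starts the attachment of the small protein SUMO to lysines of other proteins. Many transcription factors and chromatin proteins carry SUMO, and the modification is best known for holding genes silent. Dex binds the glucocorticoid receptor, a transcription factor, and kills sensitive myeloma cells. The 4 genes have separate roles. GLB1L3 encodes a beta-galactosidase-like protein. POU3F1 (OCT6) is a POU homeodomain transcription factor known from myelinating Schwann cells and the epidermis. YIPF1 is a Golgi membrane protein of the YIP1 family. RELN encodes reelin, a large secreted glycoprotein that guides neurons through the receptors VLDLR and LRP8 and the adaptor DAB1.

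The defining markers of the labelled cell type were checked first. All 8 plasma cell markers were found in every library, with SDC1 between 510 and 955 CPM (counts in 1000000 counts of the library). The marker levels are by library size alone. The levels of genes given further below are also scaled with edgeR's TMM method. The 4 neural markers, which bear on POU3F1 and RELN, summed to at most 0.964 CPM. The summed levels reached 5.24 CPM for T cells (all of it CD3E, with CD3D at 0), 0.444 CPM for myeloid cells and 1.95 CPM for stroma. FKBP5, which glucocorticoids induce, had a log2 fold change of 4.6 (SE 0.06, edgeR adjusted p = 1.22e-18) with Dex in MM1S and 0.02 (SE 0.06, adjusted p = 1) in MM1R.

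GLB1L3 lies at chr11:134146275-134189458 on the plus strand in hg19, the build of the table. POU3F1 lies at chr1:38509523-38512450, YIPF1 at chr1:54317392-54355487 and RELN at chr7:103112231-103629963, all on the minus strand. No other row of the table overlapped any of the 4 genes. In GENCODE release 29 a pseudogene (AP000859.1) on the other strand of GLB1L3, an antisense gene (AC005064.1) at RELN and a small RNA gene (RN7SKP86) on the strand of RELN overlap these genes without touching their exons. Of the 50-base words in the GENCODE transcripts of GLB1L3, 1.23% also occur in other genes' transcripts, 83 of them in GLB1L2, its neighbour and family member. For POU3F1 the share was 2.06%, all of it with POU3F3, which had 0 counts in every library. YIPF1 and RELN shared 0 of these words.

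The promoters are shown because 3 of the 4 genes moved together across the libraries and the fourth moved the other way. All 4 were found in RefSeq's promoter table, which is in GRCh38.p14 and gives 250 bases before and 50 after the start of the gene. The sequences read 5′ to 3′ along the gene's own strand, from chr11:134276129-134276428 (plus), chr1:38046744-38047043 (minus), chr1:53889748-53890047 (minus) and chr7:103989609-103989908 (minus) in the order given. Capitals mark CCAAT (the CCAAT box), GGGCGG (the GC box) and CACGTG (an E-box, the motif that MYC and its relatives bind), each searched on both strands.
GLB1L3: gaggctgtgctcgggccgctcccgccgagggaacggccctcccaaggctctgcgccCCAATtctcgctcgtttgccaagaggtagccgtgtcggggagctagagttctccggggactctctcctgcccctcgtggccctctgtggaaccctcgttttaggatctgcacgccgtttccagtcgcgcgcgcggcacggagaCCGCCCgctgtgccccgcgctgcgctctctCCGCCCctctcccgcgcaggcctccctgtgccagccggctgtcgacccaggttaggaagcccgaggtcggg
POU3F1: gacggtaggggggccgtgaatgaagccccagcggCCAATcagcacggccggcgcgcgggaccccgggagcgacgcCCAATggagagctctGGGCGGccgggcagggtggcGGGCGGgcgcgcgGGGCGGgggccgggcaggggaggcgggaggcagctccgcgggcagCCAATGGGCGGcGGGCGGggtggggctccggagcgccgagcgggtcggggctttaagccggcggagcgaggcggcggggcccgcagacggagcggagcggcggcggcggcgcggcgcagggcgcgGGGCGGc
YIPF1: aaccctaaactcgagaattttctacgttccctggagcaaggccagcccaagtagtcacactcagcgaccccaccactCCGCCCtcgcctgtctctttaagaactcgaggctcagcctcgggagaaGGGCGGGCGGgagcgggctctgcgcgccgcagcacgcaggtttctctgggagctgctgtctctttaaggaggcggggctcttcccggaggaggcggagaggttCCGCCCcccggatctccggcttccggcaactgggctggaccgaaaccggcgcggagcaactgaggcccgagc
RELN: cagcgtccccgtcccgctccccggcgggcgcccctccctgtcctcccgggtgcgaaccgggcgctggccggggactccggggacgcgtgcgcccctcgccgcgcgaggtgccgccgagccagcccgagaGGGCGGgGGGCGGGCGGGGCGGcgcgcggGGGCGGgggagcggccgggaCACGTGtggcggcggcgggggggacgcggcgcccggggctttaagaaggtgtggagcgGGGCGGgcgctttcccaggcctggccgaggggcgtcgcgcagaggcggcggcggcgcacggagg

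All 4 promoters held more CpG, the dinucleotide that DNA methylation acts on, than the median promoter. RELN held 52 CpG and POU3F1 49, more than 99.2% and 98.4% of the 35116 promoters in the RefSeq table. GLB1L3 held 33 and YIPF1 26, more than 82.8% and 69.9% of them, against a median of 14 over that table. GC boxes, which 45% of all promoters hold, occurred 2 times in GLB1L3, 6 times in POU3F1, 4 times in YIPF1 and 6 times in RELN, overlapping matches counted. The CCAAT box, held by 34.6% of promoters, occurred 3 times in POU3F1 and 1 time in GLB1L3, where it lies 194 bases before the start. The E-box, held by 7.26%, occurred 1 time in RELN, 72 bases before the start, and not in the other three windows. The STAT motif TTCNNNGAA, the core of the interferon-stimulated response element, the AP-1 motif TGACTCA and TATAAA, held by 7.66%, 3.57%, 4.95% and 11.5% of promoters, had no match in these 4 windows.

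GLB1L3 was close to the detection limit without TAK-981 and was a mid-level to well expressed gene with it. In MM1S its counts were 11 and 16 with vehicle, 1599 and 1490 with TAK-981, 8 and 5 with Dex, and 497 and 503 with the combination. In MM1R they were 2 and 4 with vehicle, 727 and 807 with TAK-981, 5 and 3 with Dex, and 841 and 856 with the combination. Every library with TAK-981, alone or in the combination, lay above every library without it. The highest level was that of TAK-981-treated MM1S at 79.8 ± 4.42 CPM (SD, n = 2). Next came the combination in MM1R at 39.7 ± 2.23 CPM and TAK-981 in MM1R at 39.4 ± 0.512 CPM, whose libraries overlapped, and then the combination in MM1S at 29.2 ± 2.21 CPM. The 4 groups without TAK-981 had means between 0.124 and 0.669 CPM, and Dex and vehicle overlapped in MM1R. Per kilobase of the gene's length, TAK-981-treated MM1S reached 18.3 ± 1.01 RPKM, above 75.2% of the genes tested in those libraries.

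POU3F1 followed the same outline. Its counts in MM1S were 10 and 7 with vehicle, 505 and 541 with TAK-981, 17 and 19 with Dex, and 207 and 290 with the combination. In MM1R they were 11 and 8, 613 and 616, 6 and 6, and 831 and 799 in the same order of treatments. Again every library with TAK-981 lay above every library without it. Unlike GLB1L3, POU3F1 had its highest mean in MM1R with the combination, at 38.1 ± 0.604 CPM (SD, n = 2). As in GLB1L3, its lowest TAK-981-containing mean was in MM1S with the combination, at 14.4 ± 2.21 CPM. Dex-treated MM1S, at 0.920 ± 0.0545 CPM, lay above the other three groups without TAK-981, which were between 0.262 and 0.414 CPM. The 2 vehicle groups overlapped. On the RPKM scale POU3F1 went in MM1S from 0.142 ± 0.0268 with vehicle to 9.23 ± 0.399 with TAK-981, and in MM1R from 0.134 ± 0.0302 to 10.8 ± 0.620.

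YIPF1 was expressed in every library and was the most abundant of the 4 genes per length. In MM1S it stood at 36.3 and 36.3 CPM with vehicle, 155 and 158 with TAK-981, 57.7 and 63.1 with Dex, and 108 and 108 with the combination. In MM1R it stood at 44.1 and 45.2 CPM with vehicle, 174 and 177 with TAK-981, 42.2 and 44.0 with Dex, and 173 and 173 with the combination. The 4 groups with TAK-981 again lay above the 4 without it, but Dex-treated MM1S was the highest of the latter and the combination in MM1S the lowest of the former. With TAK-981 it reached 82.7 ± 1.08 RPKM in MM1S and 93.0 ± 1.27 RPKM in MM1R, above 96.4% and 96.9% of the genes tested.

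RELN was lower with TAK-981 and also differed between the lines. In MM1S it stood at 36.7 and 33.5 CPM with vehicle, 7.42 and 7.31 with TAK-981, 25.3 and 22.2 with Dex, and 3.34 and 4.12 with the combination. In MM1R it stood at 129 and 126 CPM with vehicle, 41.2 and 43.1 with TAK-981, 126 and 125 with Dex, and 39.6 and 41.6 with the combination. Within each line all libraries with TAK-981 lay below all libraries without it. Across the lines this did not hold, since the lowest MM1R group, the combination at 40.6 ± 1.41 CPM (SD, n = 2), was still above vehicle-treated MM1S at 35.1 ± 2.21 CPM. The TAK-981 and combination libraries of MM1R overlapped. As these are bulk libraries, fewer cells that express a gene and less RNA per cell cannot be told apart.

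**Figure D1:**
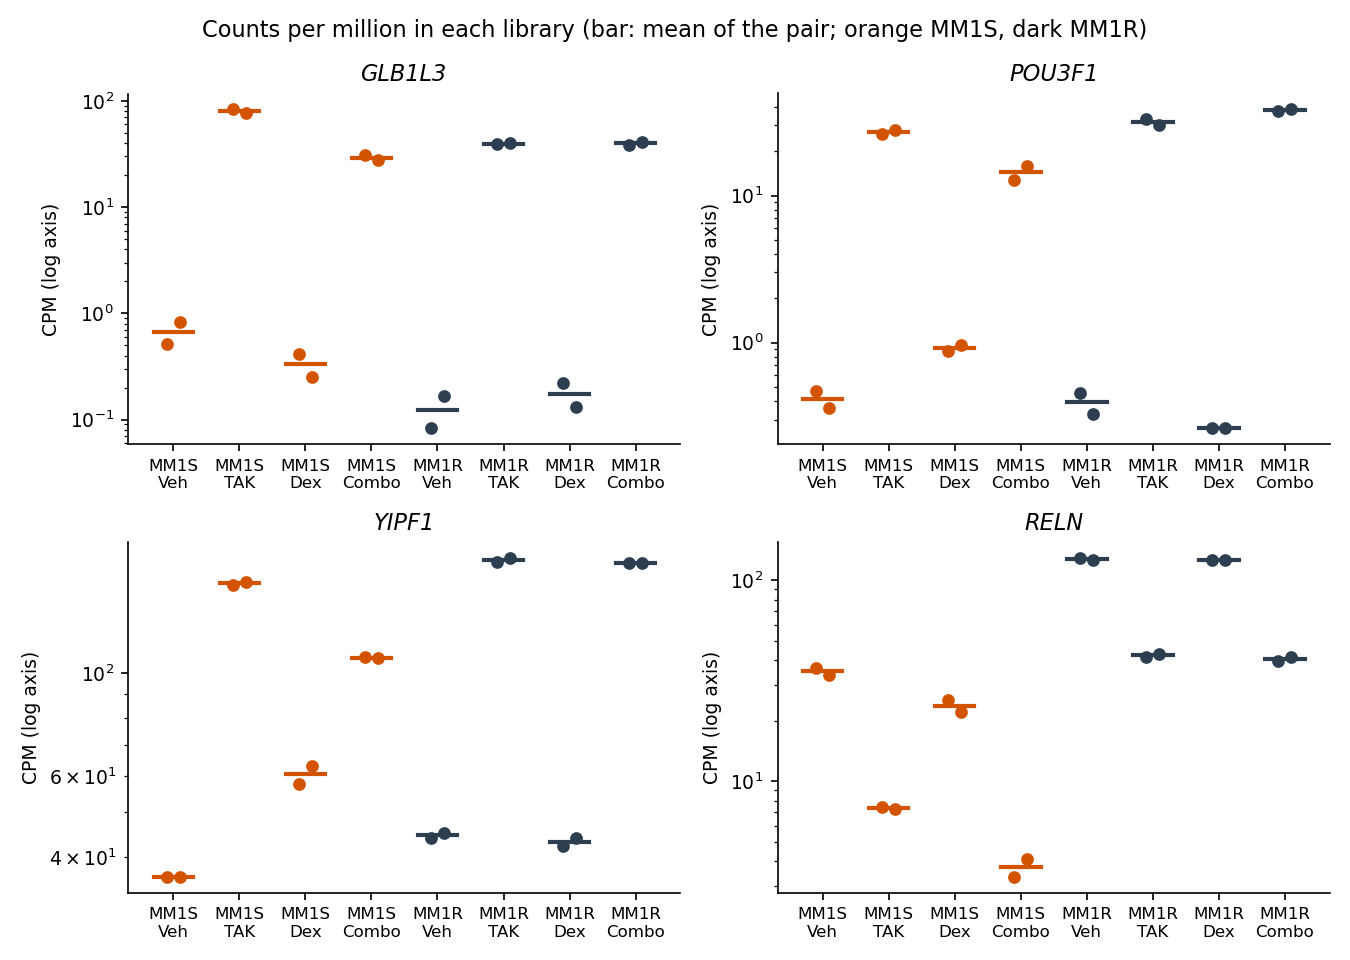
CPM (log axis, a separate scale in each panel) of GLB1L3, POU3F1, YIPF1 and RELN in each of the 16 libraries, with 1 point a library and a bar at the mean of the 2. GLB1L3, POU3F1 and YIPF1 are high in each group with TAK-981 and low in each group without it, and RELN shows the reverse within each line, with MM1R above MM1S throughout.

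By size of the fitted change from vehicle to TAK-981, only 2 of the 4 genes were near the top of the 14215 genes tested. The log2 fold change of GLB1L3 was 6.90 (SE 0.25) in MM1S, the 9th highest, and 8.24 (SE 0.52) in MM1R, the 5th highest. POU3F1 was 63.9-fold higher in MM1S (SE 0.31 on the log2 scale) and 79.4-fold higher in MM1R (SE 0.30), the 16th and 14th highest. YIPF1 had smaller log2 fold changes, with 2.11 (SE 0.06) and 1.98 (SE 0.06), the 178th and 303rd highest. RELN had -2.25 (SE 0.10) and -1.60 (SE 0.07), the 28th and 62nd lowest. In this contrast 49% of all genes tested in MM1S and 53.4% in MM1R had an adjusted p under 0.05 (Benjamini-Hochberg), but it is the contrast by which the 4 genes were picked. The filter on low counts asked for about 0.493 CPM in at least 2 libraries. YIPF1 and RELN had mean levels over it in all 8 groups, whereas GLB1L3 and POU3F1 had them in 5 groups each, so both passed mainly through the groups in which they were high. Counting error alone leaves the ratio of TAK-981 to vehicle for GLB1L3 between 82.7 and 183 in MM1S and between 146 and 868 in MM1R (95% exact intervals).

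The comparison of the combination with Dex gives the change with TAK-981 in the Dex-treated libraries. Earlier results of all 16 libraries were known when the 4 genes were picked, so their values here are a description too. In MM1S, GLB1L3 was 86.3-fold higher (log2 fold change 6.43, SE 0.36). POU3F1 was 15.6-fold higher (3.96, SE 0.23) and YIPF1 1.79-fold (0.84, SE 0.06). RELN was 6.32-fold lower (-2.66, SE 0.13). In MM1R, GLB1L3 was 219-fold higher (7.78, SE 0.45), POU3F1 142-fold (7.15, SE 0.37) and YIPF1 4.02-fold (2.01, SE 0.06). RELN was 3.09-fold lower (-1.63, SE 0.07). Of all genes tested 47.6% in MM1S and 48.4% in MM1R had an adjusted p under 0.05 in this comparison (edgeR quasi-likelihood). In neither line did the libraries of the 2 groups overlap for any of the 4 genes. The share of all genes without overlap was not counted, so this describes the 4 picked genes only. By absolute size, GLB1L3 ranked 9th in MM1S and 5th in MM1R, POU3F1 48th and 8th, YIPF1 2245th and 289th, and RELN 144th and 476th among the genes tested. The fold changes of GLB1L3 and POU3F1 rest on few counts in the Dex groups, from 8 to 36 over the 2 libraries, and counting error alone leaves 115 to 526 for GLB1L3 and 82.9 to 282 for POU3F1 in MM1R.

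**Figure D2:**
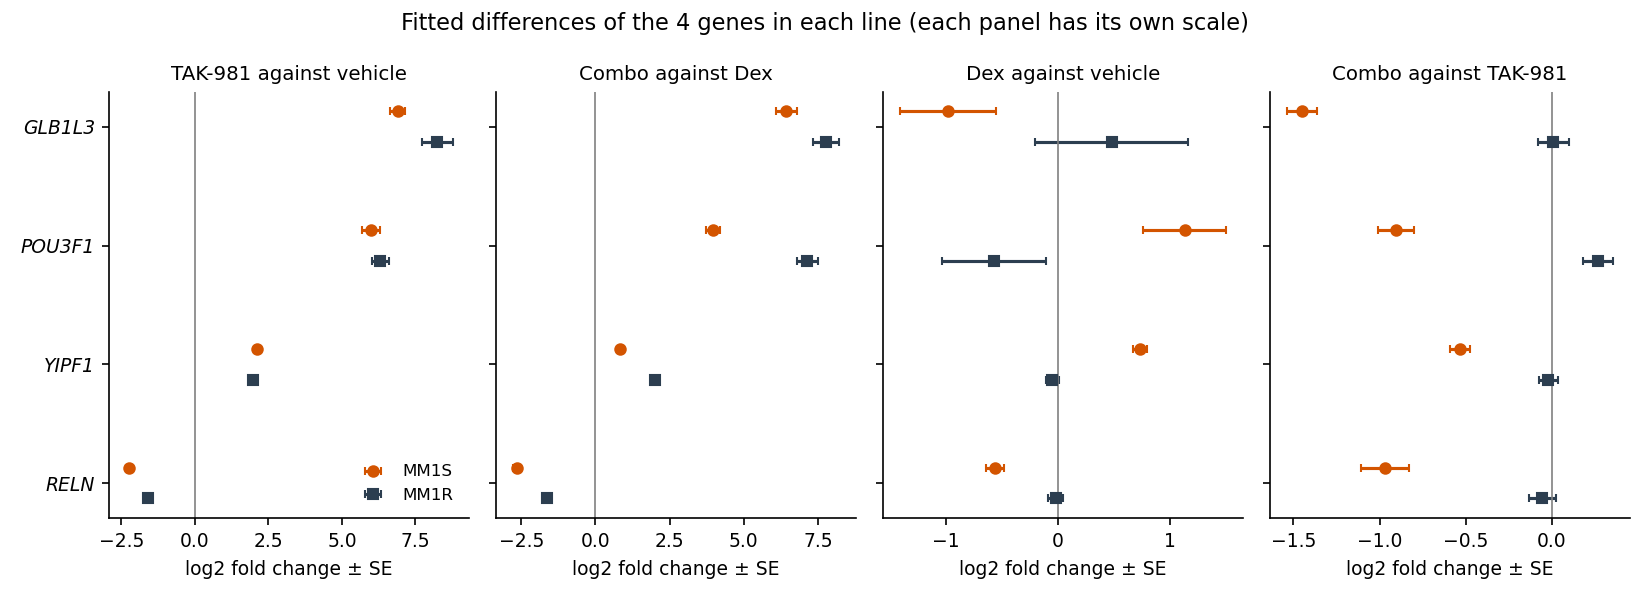
Fitted log2 fold changes with standard errors for the 4 genes in 4 comparisons, MM1S as orange circles and MM1R as dark squares; the scale differs between panels. In the combination against Dex panel POU3F1 lies at 3.96 in MM1S and 7.15 in MM1R, and in the Dex against vehicle and combination against TAK-981 panels the MM1R points of YIPF1 and RELN sit near 0.

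The size of this change also differed between the lines. The 4 genes were picked for changes in one line or in both with earlier results known, so the difference is described without a test. The difference, MM1R minus MM1S, was 3.19 for POU3F1 (SE 0.43), 1.17 for YIPF1 (SE 0.08) and 1.03 for RELN (SE 0.15). That of POU3F1 rests on 12 counts over the 2 Dex libraries of MM1R. Relative to Dex, POU3F1 and YIPF1 thus stood further up in MM1R, while RELN stood less far down there. Relative to vehicle the lines lay closer for POU3F1, 63.9-fold higher in MM1S and 79.4-fold in MM1R, and the order was turned for YIPF1, 4.30-fold and 3.94-fold higher. For RELN the log2 fold changes from vehicle were -2.25 and -1.60. Whether the lines differed in the change from vehicle was not tested. For GLB1L3 the line difference in the change from Dex was 1.35 (SE 0.58), the least certain of the 4 by its SE. Of all genes tested 12.7% had an adjusted p under 0.05 for that line difference (edgeR quasi-likelihood). The Dex group of MM1S is part of the difference, since its levels of POU3F1 and YIPF1 were above those of the MM1S vehicle group. The combination groups are part of it too. POU3F1 stood there at 14.4 CPM in MM1S and 38.1 in MM1R, and YIPF1 at 108 and 173.

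**Figure D3:**
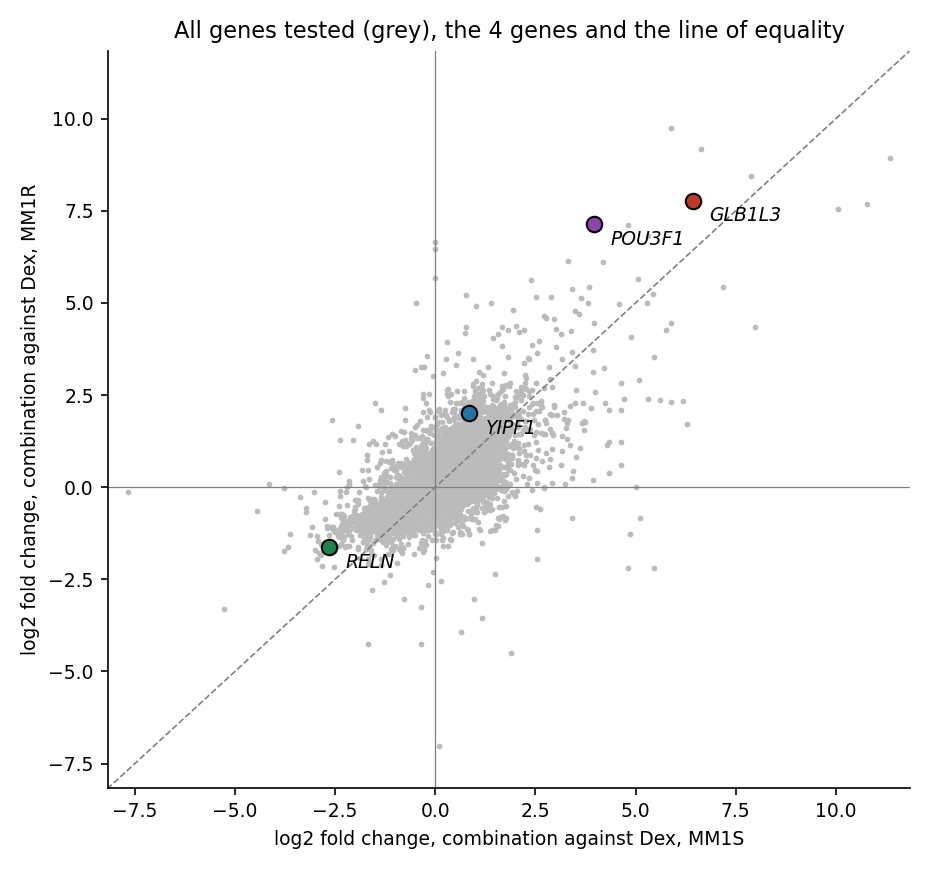
Log2 fold changes of the combination against Dex in MM1S (horizontal) and MM1R (vertical) for the 14215 genes tested (grey), the 4 genes (coloured) and the line of equality (dashed). POU3F1 and YIPF1 lie above the line by 3.19 and 1.17, and RELN lies above it by 1.03 with both values below 0.

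Dex alone moved 3 of the 4 genes in MM1S. POU3F1 rose by 1.13 on the log2 scale (SE 0.37, edgeR adjusted p = 0.016), from 17 to 36 counts over the 2 libraries. YIPF1 rose by 0.73 (SE 0.06, adjusted p = 2.07e-08) and RELN fell by 0.56 (SE 0.08, adjusted p = 1.79e-05), whereas GLB1L3 had -0.98 (SE 0.43, adjusted p = 0.0758). Of all genes 42.3% passed. For YIPF1 the direction of Dex was that of TAK-981, as it was for POU3F1 and RELN. The call for POU3F1 was lost without vehicle replicate 2 of MM1S (0.96, adjusted p = 0.112) or without Dex replicate 2 (1.06, adjusted p = 0.0838). In MM1R the log2 fold changes were 0.48 for GLB1L3 (SE 0.68), -0.57 for POU3F1 (SE 0.46), -0.05 for YIPF1 (SE 0.06) and -0.02 for RELN (SE 0.07), with adjusted p = 1 for each. In that comparison edgeR called 0 of all genes (0%), with 395 (2.78%) at an unadjusted p under 0.05, and DESeq2 called 0.

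Adding Dex to TAK-981 lowered all 4 genes in MM1S. GLB1L3 fell 2.73-fold (log2 fold change -1.45, SE 0.09, edgeR adjusted p = 2.99e-10) and POU3F1 1.87-fold (-0.90, SE 0.10, adjusted p = 1.05e-06). YIPF1 fell 1.45-fold (-0.53, SE 0.06, adjusted p = 5.51e-07) and RELN 1.96-fold (-0.97, SE 0.14, adjusted p = 1.7e-05). In this comparison 35.1% of all genes passed, 20.6% as lower. In RELN the combination was thus the lowest of all 8 groups, at 3.73 ± 0.551 CPM (SD, n = 2), while in the other three genes it lay between Dex and TAK-981. In MM1R the same comparison gave 0.01 (SE 0.09) for GLB1L3, 0.27 (SE 0.09) for POU3F1, -0.02 (SE 0.06) for YIPF1 and -0.05 (SE 0.08) for RELN, with adjusted p = 1 for each. There edgeR called 0 genes (0%), with 214 (1.51%) at an unadjusted p under 0.05, and DESeq2 called 0. Whether this comparison differs between the lines was not tested. The comparisons with vehicle and with TAK-981 share libraries with the contrast by which the genes were picked.

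All these values are relative to the bulk of genes in a library. With the GAPDH count as the reference instead of TMM, the median gene moved by 0.67 to 0.79 on the log2 scale in the 4 comparisons that add TAK-981 to vehicle or Dex, by 0.71 for Dex in MM1S and by 0.58 for the combination against TAK-981 in MM1S. On that scale 94.9% to 97.7% of the calls in those 4 comparisons were higher, against 46.7% to 51.5% under TMM. The share of higher calls was 94.8% in place of 49.1% for Dex in MM1S, 94.7% in place of 41.3% for the combination against TAK-981 in MM1S, 85.6% in place of 70.4% for the line difference and 6.07% in place of 50.4% for MM1R against MM1S with Dex, where the median gene moved to -0.93. GLB1L3, POU3F1 and YIPF1, which were higher with TAK-981, and RELN, which was lower, kept their direction in both lines in the combination against Dex. RELN with Dex in MM1S turned to 0.14 (adjusted p = 0.237) and YIPF1 in the combination against TAK-981 in MM1S to 0.07 (adjusted p = 0.385), both below the median gene. In the combination against Dex the median gene stood at 0.67 in MM1S and 0.71 in MM1R on that scale. The smaller decreases of relatives and neighbours given below for that comparison would be increases. Those of NDC1, DPY19L2P2, GLIS1 in MM1R and LRP8 would not.

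Without TAK-981 the lines differed in 3 of the 4 genes when Dex-treated libraries were compared. In Dex-treated libraries RELN was 5.28-fold higher in MM1R (log2 difference 2.40, SE 0.08, edgeR adjusted p = 1.42e-14). POU3F1 was 3.45-fold lower there (-1.79, SE 0.42, adjusted p = 0.000587) and YIPF1 1.40-fold lower (-0.49, SE 0.06, adjusted p = 1.52e-06), and GLB1L3 had -0.90 (SE 0.57, adjusted p = 0.203). Of all genes 57.9% passed this test. In vehicle-treated libraries, given as a description, the differences were 1.86 for RELN, 0.30 for YIPF1, -0.09 for POU3F1 and -2.36 for GLB1L3. The sign for YIPF1 thus depended on whether vehicle or Dex libraries were compared. GLB1L3 had the largest of these vehicle differences but, with 6 counts in MM1R and 27 in MM1S over the vehicle libraries, little depth for it.

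GLB1L3 sat in a stretch of chromosome 11 in which its neighbours were also higher with TAK-981. Within 500 kb on either side, a window chosen after values were seen, 8 other genes were tested: MIR4697HG, IGSF9B, JAM3, NCAPD3, VPS26B, THYN1, ACAD8 and GLB1L2. Of these, MIR4697HG, IGSF9B, JAM3 and GLB1L2 reached the level of the low-count filter in 0 or 1 of the 8 libraries without TAK-981, so they were tested only through libraries with it and are left out of the counts. NCAPD3, VPS26B, THYN1 and ACAD8 reached it in all 8. In the combination against Dex these 4 passed as higher in both lines, where 22.2% of all genes did in MM1S and 23.1% in MM1R. In TAK-981 against vehicle they did so too, where 25.2% and 25.8% of all genes did. Their median log2 fold change of the combination against Dex was 1.11 in MM1S and 1.61 in MM1R, where the medians of all genes were 0.01 and 0.00. At 2 to 5 Mb from GLB1L3, toward the centromere, the 9 tested genes had medians of 0.07 and 0.09, and 2 and 1 of them passed as higher. NTM, a cell adhesion gene about 1940 kb away and read 0 to 58 times a library, was the only tested gene between the near and the far set, and it rose as well, by 1.58 in MM1S (SE 0.33, edgeR adjusted p = 0.000492) and 1.77 in MM1R (SE 0.65, adjusted p = 0.018). A rise was thus also found beyond 500 kb.

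The neighbours of GLB1L3 differed in level far more than in direction. ACAD8, a mitochondrial acyl-CoA dehydrogenase gene that ends 10.5 kb before GLB1L3, had 705 and 798 counts with Dex and 1432 and 1600 with the combination in MM1S (log2 fold change 1.20, SE 0.07, edgeR adjusted p = 1.06e-10). In MM1R it had 684 and 749 against 3418 and 3299 (2.32, SE 0.07, adjusted p = 1.73e-14). VPS26B, a retromer subunit gene, gave 1.02 (SE 0.07, adjusted p = 4.69e-10) and 2.13 (SE 0.06, adjusted p = 3.18e-14), and THYN1 gave 0.21 (SE 0.08, adjusted p = 0.0445) and 1.08 (SE 0.08, adjusted p = 2.8e-09). From Dex to the combination these 3 genes rose more in MM1R than in MM1S. The difference was 1.12 for ACAD8 (edgeR adjusted p = 3.28e-07), 1.11 for VPS26B (adjusted p = 2.18e-07) and 0.88 for THYN1 (adjusted p = 2.95e-05). From vehicle to TAK-981 the lines lay close. ACAD8 had 2.23 in MM1S and 2.31 in MM1R, VPS26B 2.13 and 2.11, and THYN1 1.06 and 1.02. Whether the lines differed in that change was not tested. From Dex to the combination NCAPD3, a condensin II subunit gene, rose by 1.43 and 1.10 (SE 0.06 each, edgeR adjusted p = 2.42e-12 and 5.94e-11). IGSF9B, a cell adhesion gene, had 0 and 4 counts with Dex and 19 and 18 with the combination in MM1S, and 0 and 0 against 8 and 10 in MM1R. JAM3, a junctional adhesion gene read at most 18 times a library, had 6 and 6 counts with Dex and 4 and 7 with the combination in MM1S, and 7 and 5 against 18 and 12 in MM1R. MIR4697HG, a noncoding RNA gene, had 0 counts in all 4 Dex libraries, 16 and 14 with the combination in MM1S, and 5 and 6 in MM1R, so its fitted fold change depends on the prior count.

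**Figure D4:**
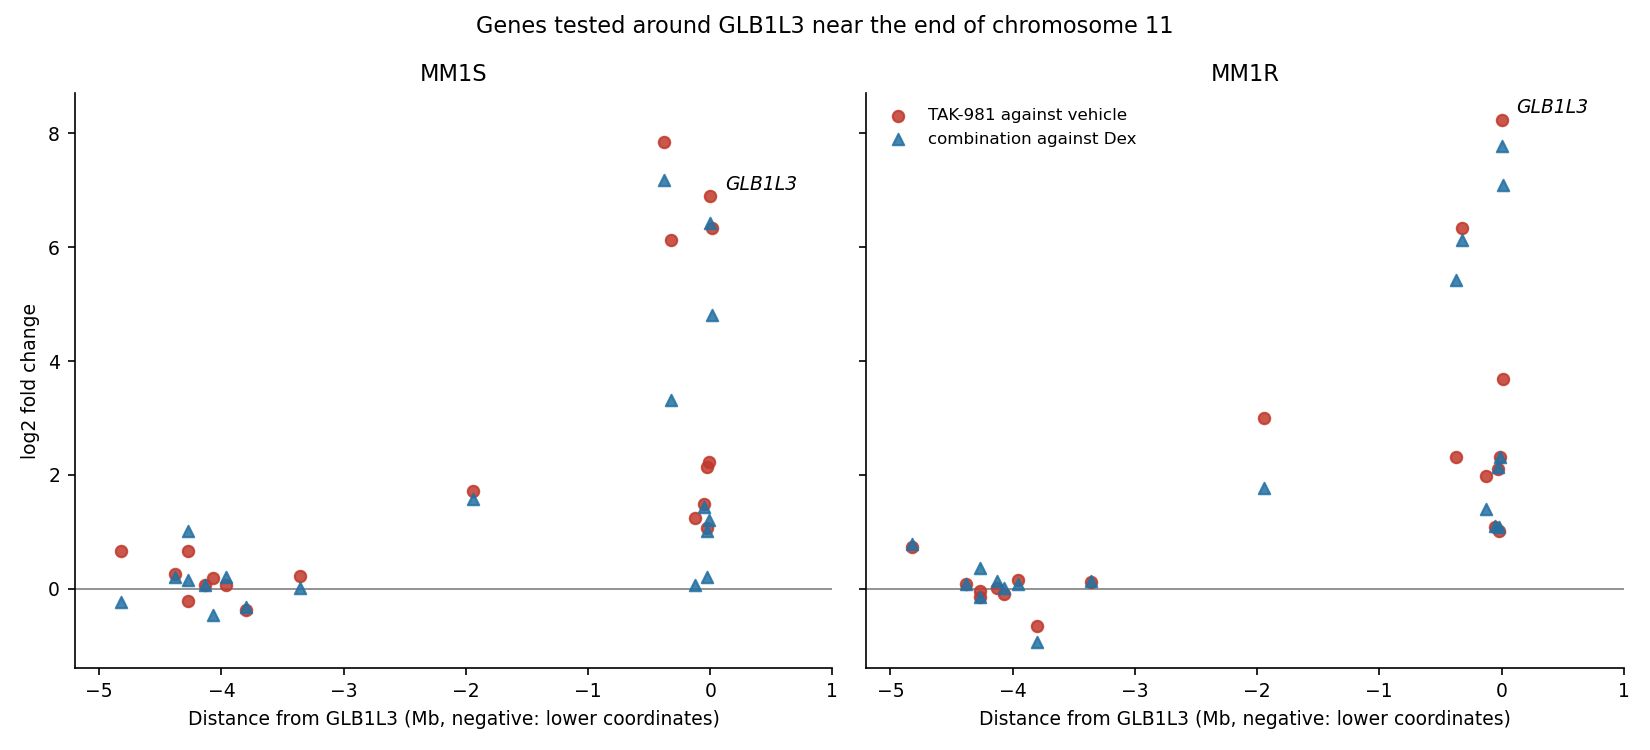
Log2 fold change of each tested gene within 5 Mb of GLB1L3 against its distance in Mb (negative toward lower coordinates), for TAK-981 against vehicle (circles) and the combination against Dex (triangles) in MM1S (left) and MM1R (right). Genes within 0.5 Mb lie at or above 0.06, NTM, about 1940 kb away, lies at or above 1.58, and the 9 genes beyond 2 Mb lie between -0.93 and 1.01.

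Fewer neighbours of the other three genes rose. Within 500 kb of POU3F1, 13 genes were tested, of which 1 passed as higher in the combination against Dex in each line, and 8 in MM1S and 6 in MM1R passed as lower, where 25.4% and 25.3% of all genes did. Within 500 kb of YIPF1, 3 of 10 tested genes passed as higher in each line, and within 500 kb of RELN 0 of 10 did. Of all genes 22.2% in MM1S and 23.1% in MM1R passed as higher, a share near that around YIPF1. Among the genes that reached the filter's level in at least 2 libraries without TAK-981, a rise of at least 2-fold was found for 0 of 13 around POU3F1, 0 of 9 around YIPF1 and 0 of 9 around RELN in both lines, and for 3 in MM1S and 4 in MM1R of the 4 around GLB1L3. Of all genes tested 5.68% and 6.25% rose that much and passed. Of the 9 around YIPF1, 3 in MM1S and 2 in MM1R passed as higher by any size. A gene near YIPF1 that reached the filter's level only with TAK-981 was DIO1, so no test is given for it. This thyroid hormone deiodinase gene starts 4.37 kb upstream of YIPF1 on the other strand. In MM1R DIO1 had 2 and 2 counts with Dex and 44 and 28 with the combination (ratio 19.2, 95% exact interval from counting error 7.20 to 72.5). In MM1S it had 4 and 0 against 3 and 3 (ratio 1.71, interval 0.405 to 8.2). From vehicle to TAK-981, DIO1 went from 3 to 22 counts over the 2 libraries in MM1S (ratio 7.73, interval 2.32 to 40.3). In MM1R it went from 4 to 88 (ratio 27.4, interval 10.3 to 103).

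The nearest tested neighbours of the other three genes otherwise showed small or mixed differences in the combination against Dex. On the side of YIPF1 away from DIO1, the nucleoporin gene NDC1 fell by 1.01 in MM1S (SE 0.08, edgeR adjusted p = 1.12e-08), and by 0.91 in MM1R (SE 0.07, adjusted p = 1.16e-08). GLIS1 rose by 0.68 in MM1S (SE 0.20, adjusted p = 0.00919) and fell by 0.99 in MM1R (adjusted p = 0.00197). From vehicle to TAK-981, GLIS1 had -0.63 in MM1S (SE 0.16, edgeR adjusted p = 0.00288) and -0.33 in MM1R (SE 0.23, adjusted p = 0.286). In the combination against Dex HSPB11 rose in MM1S and LRRC42 in both lines, by at most 0.59. Beside POU3F1, UTP11, SF3A3 and NDUFS5 fell in both lines by 0.27 to 0.44, RRAGC and AKIRIN1 rose in MM1R by 0.38 and 0.36, and FHL3 was read at most 12 times. Beside RELN, the proteasome gene PSMC2 fell by 0.22 in MM1S (SE 0.07, adjusted p = 0.0154) and, in MM1R, by 0.31 (adjusted p = 0.000772). DNAJC2 and ORC5 fell in MM1R by 0.37 and 0.32, and SLC26A5, LHFPL3-AS1 and LHFPL3-AS2, each read at most 28 times, did not pass in either line.

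Within the beta-galactosidase family the response was uneven. GLB1, the lysosomal beta-galactosidase itself, had a log2 fold change of the combination against Dex of -0.18 in MM1S (SE 0.06, edgeR adjusted p = 0.0183) and 0.03 in MM1R (SE 0.06, adjusted p = 0.7). GLB1L rose by 0.51 (SE 0.15, adjusted p = 0.0104) and 0.72 (SE 0.16, adjusted p = 0.000765). GLB1L2 starts 12.3 kb beyond the end of GLB1L3 on the same strand. It reached the level of the low-count filter in 1 of the 8 libraries without TAK-981, so no test is given for it. In MM1S it had 0 and 1 counts with Dex and 17 and 13 with the combination (ratio 34.2, 95% exact interval from counting error 5.68 to 1395). In MM1R it had 1 and 0 counts against 85 and 79 (ratio 175, interval 31.0 to 6964). The 2 vehicle libraries of MM1R disagreed on this gene, with 0 and 16 counts. GLB1L2 stayed at far lower counts than GLB1L3 in every library with TAK-981.

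Of the other 14 POU genes 6 were expressed enough to be tested. In the combination against Dex 3 of the 6 rose in MM1S and 2 in MM1R, where 22.2% and 23.1% of all genes rose, 0 fell, and the medians were 0.25 and 0.13. POU2F1 (OCT1) rose by 0.36 (SE 0.09, edgeR adjusted p = 0.00384) and 0.27 (SE 0.09, adjusted p = 0.0209). POU2F2 (OCT2), a B-lineage factor, rose by 0.23 in MM1S (SE 0.07, adjusted p = 0.0101) and 0.83 in MM1R (SE 0.07, adjusted p = 1.8e-08), and differed between the lines by 0.60 (adjusted p = 0.000316). Its coactivator POU2AF1, which is not a POU gene and stands outside these counts, had 0.02 (adjusted p = 0.842) and 0.28 (SE 0.06, adjusted p = 0.000533). POU4F1 had 13 and 16 counts with Dex and 35 and 48 with the combination in MM1S (1.70, SE 0.31, adjusted p = 9.82e-05), with 0.16 in MM1R (adjusted p = 0.553). In MM1S it had 57 and 55 counts with vehicle and 68 and 51 with TAK-981 (0.16, SE 0.21, edgeR adjusted p = 0.54). Its change from vehicle to Dex there was -1.88 (SE 0.30, adjusted p = 2e-05). Of the class of POU3F1, POU3F2 was read at most 45 times and did not pass in the combination against Dex in either line. POU3F3 and POU3F4 had 0 counts in all 16 libraries.

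Few relatives of YIPF1 passed the test. Of 10 other YIP1 family and RAB genes tested, 0 rose and 2 fell in MM1S and 1 rose and 1 fell in MM1R in the combination against Dex, with medians of -0.06 and -0.05. Of all genes 22.2% rose and 25.4% fell in MM1S, and 23.1% and 25.3% in MM1R. YIF1B fell by 0.46 (SE 0.11, edgeR adjusted p = 0.00158) and 0.43 (SE 0.09, adjusted p = 0.000831). YIF1A had -0.26 in MM1S (SE 0.11, adjusted p = 0.0484) and -0.24 in MM1R (SE 0.10, adjusted p = 0.0504). YIPF3 rose by 0.31 in MM1R (SE 0.08, adjusted p = 0.00539), with -0.02 in MM1S (adjusted p = 0.893). The log2 fold changes of all 10 lay between -0.46 and 0.31, where YIPF1 had 0.84 and 2.01.

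Of the reelin pathway 27 of 31 other genes were tested. In the combination against Dex 4 of them rose and 8 fell in MM1S, and 6 rose and 6 fell in MM1R. Of all genes 22.2% rose and 25.4% fell in MM1S, and 23.1% and 25.3% in MM1R. The medians of the 27 genes were -0.13 in MM1S and -0.09 in MM1R. LRP8, a reelin receptor gene that also lies 524 kb from YIPF1, had 1119 and 1128 counts with Dex and 357 and 390 with the combination in MM1S (log2 fold change -1.40, SE 0.07, edgeR adjusted p = 3.23e-11). In MM1R it had 3459 and 3689 against 1609 and 1588 (-1.06, SE 0.06, adjusted p = 1.8e-10). RELN and LRP8 were thus both lower with the combination in both lines. APP fell by 0.50 and 0.21 (adjusted p = 2.18e-06 and 0.00704) and NOTCH1 by 0.56 and 0.30 (adjusted p = 2.25e-05 and 0.00434). RAPGEF1, an exchange factor for RAP1, rose by 0.31 in MM1R (adjusted p = 0.000206), with -0.01 in MM1S (adjusted p = 0.891). VLDLR and DAB1 are named here for their place in the pathway, after their values were seen. VLDLR, the other receptor, rose by 0.64 in MM1S (SE 0.12, adjusted p = 0.000281) and fell by 0.51 in MM1R (SE 0.17, adjusted p = 0.018), a difference of -1.15 (adjusted p = 0.000806). From vehicle to TAK-981, VLDLR had -0.79 in MM1S (SE 0.13, edgeR adjusted p = 5.67e-05) and -0.27 in MM1R (SE 0.17, adjusted p = 0.178). Its direction in MM1S thus depended on whether Dex was present. In the combination against Dex DAB1, read at most 29 times a library, rose by 1.24 (SE 0.49, edgeR adjusted p = 0.0364) in MM1S, and by 1.33 in MM1R (SE 0.36, adjusted p = 0.0035).

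**Figure D5:**
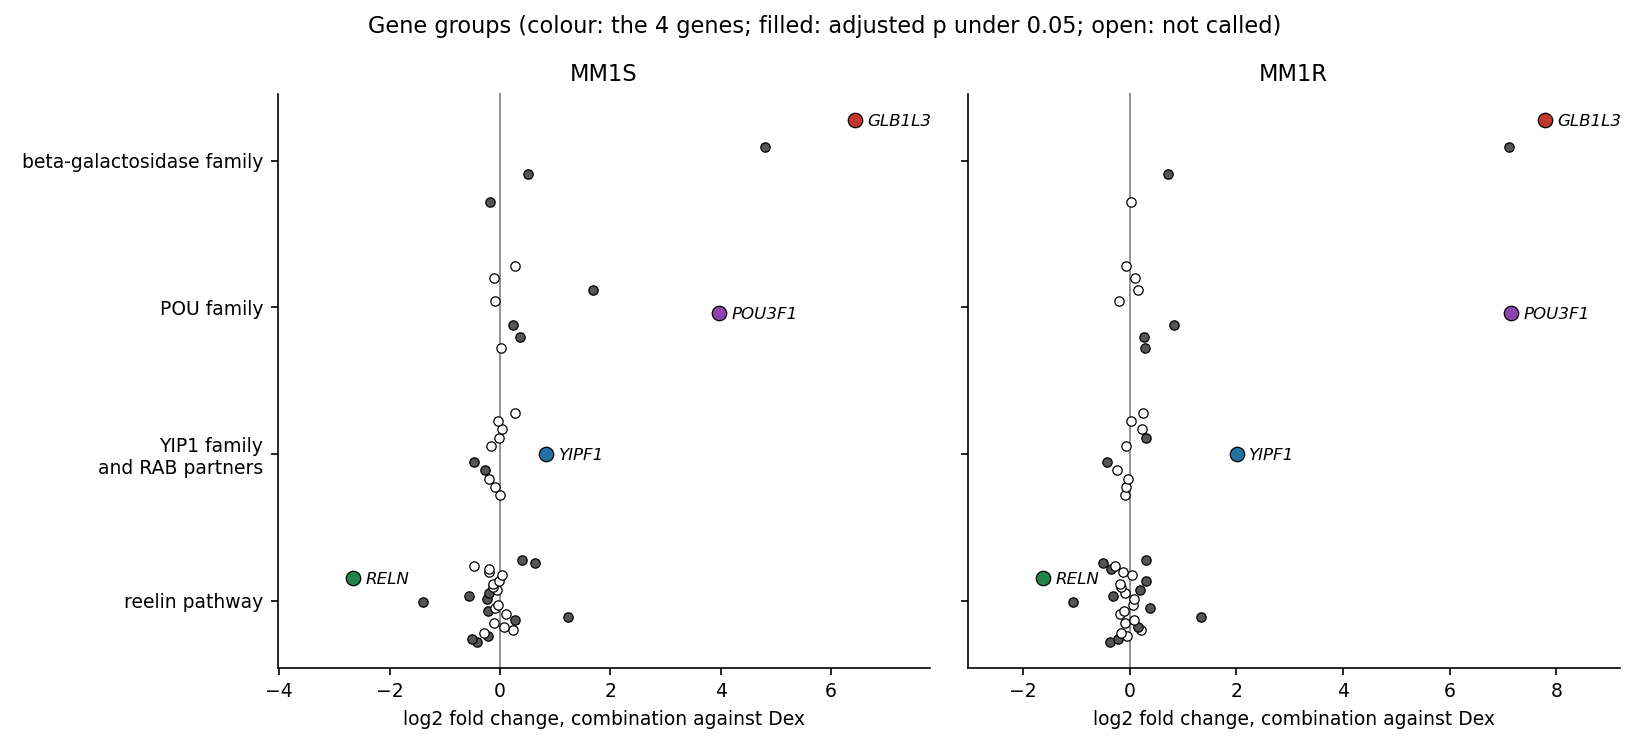
Log2 fold change of the combination against Dex in MM1S (left) and MM1R (right) for every tested gene of 4 groups: the beta-galactosidase family, the POU family, the YIP1 family with RAB partners, and the reelin pathway. Large coloured points are the 4 genes, small filled points passed the test and open points did not. GLB1L2 at 4.80 and 7.10 is the point next to GLB1L3.

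Across the 16 libraries the 3 genes that were higher with TAK-981 were alike in their profiles. Pearson's r of the log2 CPM was 0.985 for POU3F1 and YIPF1, 0.974 for GLB1L3 and POU3F1, and 0.939 for GLB1L3 and YIPF1, and RELN had -0.652, -0.572 and -0.488 with GLB1L3, POU3F1 and YIPF1. These are descriptions over 16 libraries that share their treatments and are not independent. The genes most like GLB1L3 were MEIS3, a homeobox gene (r = 0.985), and the interferon-induced genes MX1 (0.980) and XAF1 (0.977). MEIS3 had 0 counts in the vehicle libraries of both lines and 702 and 753 with TAK-981 in MM1S, at least 511-fold higher against a floor of 3 counts over the group. Among the genes most like POU3F1 were MX1 (0.988) and the interferon-induced GBP4 (0.986), and among those most like YIPF1 were POU3F1 itself (0.985) and ADTRP (0.985).

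The genes most like RELN were SLC43A3, a solute carrier (r = 0.994), TUBB, a beta-tubulin (0.994), and KDELC2, a glycosyltransferase of the endoplasmic reticulum (0.986). SLC43A3 had the levels of RELN on a smaller scale. It stood at 11.6 ± 0.815 CPM with vehicle and 1.96 ± 0.574 with TAK-981 in MM1S, and at 66.0 ± 2.99 and 17.4 ± 1.97 in MM1R (SD, n = 2). TUBB stood at 778 ± 56.8 CPM with vehicle and 329 ± 4.20 CPM with TAK-981 in MM1S, and in MM1R at 1341 ± 41.7 and 711 ± 5.02 CPM. In each of the 3 genes MM1R lay above MM1S under all 4 treatments, as it did in RELN.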

How the data were processed

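RNA-seq of 16 libraries was analysed from the count table. The authors deposited whole-number counts per gene, not normalized, in hg19 positions. The submitters' processing notes name bcl2fastq 2.18.0.12, STAR 2.6.0, HTSeq 0.6.0, edgeR 3.28.1 and hg19. The strand setting and the annotation are not given in the sources used here. Genes were filtered with filterByExpr (minimum count 10), which left 14215 of 23354. TMM and a robust quasi-likelihood fit with 1 term per group (edgeR 4.0.16, R 4.3.3, 8 residual degrees of freedom) were used, and p was adjusted by Benjamini-Hochberg across every tested gene (threshold 0.05). Log2 CPM had a prior count of 2. RPKM used the table's gene lengths. The scripts were tested on simulated data.

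The genes, the gene lists and the rules were chosen with earlier results of these data known. Named were the 4 genes, the beta-galactosidase family, the 3 nearest tested genes on each side, up to 4 genes of each other list with the smallest adjusted p in the combination against Dex, and 3 genes with the highest r for each of the 4 (mean log2 CPM of at least 0, SD at least 0.5 times that of the gene). Some items that these rules name are not reported here. Rows spanning over 3 Mb, placed at several loci, were left out as neighbours. Replicates differed by more than counting noise in every group. Same-numbered libraries were not treated as pairs, since few pairs of groups had a correlation of their deviations over 0.1 (r from 0.0162 to 0.263 in MM1S, 2 of 6 pairs over 0.1, and 0 of 6 in MM1R, from -0.0134 to 0.0821). Intervals and floors cover counting error only. DESeq2 1.42.0 was an alternative.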

Additional observations from a re-analysis of the deposited data

Results flagged for a closer look

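In 3 of the 4 genes the change from Dex to the combination was flagged as different between the lines. The difference, MM1R minus MM1S on the log2 scale, was 3.19 for POU3F1, 1.17 for YIPF1 and 1.03 for RELN. The genes were picked for their changes with TAK-981, so these differences are a description and no test is given for them. Of all genes 12.7% had an adjusted p under 0.05 for this line difference (edgeR quasi-likelihood). POU3F1 and YIPF1 were higher in Dex-treated MM1S than in Dex-treated MM1R and lower in the MM1S combination than in the MM1R combination, in both libraries of each group. RELN was higher in MM1R in both states. Relative to vehicle POU3F1 with TAK-981 was 63.9-fold higher in MM1S and 79.4-fold in MM1R, and YIPF1 4.30-fold and 3.94-fold, so the lines lay closer there. That difference was not tested. The alternatives with a test kept the 3 differences past the threshold, with values from 3.04 to 3.36 for POU3F1, 1.10 to 1.23 for YIPF1 and 0.90 to 1.20 for RELN.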

How the results depend on the processing

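In the combination against Dex, all 4 genes kept their direction in both lines under every alternative run. GAPDH as reference reversed RELN with Dex in MM1S (0.14) and MM1R (0.016) and YIPF1 in the combination against TAK-981 in MM1S (0.071), brought GLB1L3 in Dex-treated MM1R against MM1S past the threshold (-1.80), and raised the genes called to 11796 and 11707 (TAK-981 against vehicle, MM1S and MM1R), 11519 and 11532 (combination against Dex), 11078 (Dex in MM1S) and 10823 (combination against TAK-981 in MM1S), against 6960, 7592, 6765, 6873, 6017 and 4990. A prior count of 2 gave 7.19 for GLB1L3 and 6.73 for POU3F1 in the combination against Dex in MM1R, 2.89 for the line difference of POU3F1 and -1.50 for POU3F1 in Dex-treated MM1R against MM1S. Without the filter Dex in MM1R had 30 calls and the combination against TAK-981 in MM1R 9, the latter 5 when only its groups were fitted.

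With each library left out in turn, POU3F1 with Dex in MM1S ranged from 0.96 to 1.34, GLB1L3 in the combination against TAK-981 in MM1R from -0.049 to 0.066, genes called for the line difference from 1161 to 2345 (1161 without MM1S combination replicate 1 and 1173 without MM1R combination replicate 1), for Dex in MM1R from 0 to 9 and for the combination against TAK-981 in MM1R from 0 to 1. A group left with 1 library was assumed to vary like the others.

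The replicate block raised the calls for the line difference from 1804 to 2858 and changed no call among the 4 genes; the numbers share no stated origin. Depth limits GLB1L3 and POU3F1 without TAK-981, and 2 libraries a group limit every spread.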
